A study of Mus musculus with 63 samples.

Results

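Yy1, Yy2 and Zfp42 encode the mouse members of the YY1 family of zinc finger proteins, and all 3 symbols were looked up by name among the 47517 gene symbols of each RNA-seq count table. The rule that picks them is their name and uses no measured value. The series compares embryonic stem (ES) cells with extended pluripotent stem (EPS) cells, a cultured state reported to reach embryonic and extraembryonic lineages, and asks what YY1 does in them. Of its 63 mouse samples the 22 RNA-seq libraries were used, in 10 groups, and the other 41 samples were not analysed here.

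All cells are labelled C57BL/6. ES cells were kept in 2i medium and EPS cells in LCDM medium (n = 3 libraries each), on Matrigel or on growth-arrested fibroblast feeders from mouse embryos, and the labels do not say which library came from which. EPS shYy1 cells carried a short hairpin RNA against Yy1 and EPS shCtrl cells a control hairpin, and ES oeCtrl and ES oeYy1 a control or a Yy1 overexpression construct (n = 2 each). The same 4 lines were sampled again on day 6 of a condition named F4H (n = 2 each). In their titles the day 6 controls are shCtrl and oeCtrl, while their genotype label is only control, so that a construct in them rests on the titles. The labels do not say whether replicates came from separate cultures, and the p-values therefore reflect the spread among these libraries only, which can be technical. They also do not say whether a line is a clone.

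YY1 is a ubiquitous transcription factor that binds promoters and enhancers, can activate or repress, recruits the INO80 remodeller and Polycomb proteins, and is known for joining enhancers to promoters. Yy2 is an intronless copy of Yy1 that lies inside the X-linked gene Mbtps2. Zfp42 encodes REX1, another retroposed relative, long used as a marker of naive pluripotent cells because it is switched off when they differentiate.

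The promoters of the 3 genes are shown because the members moved differently and because Zfp42 alone of them held a match to either of the motifs searched. Each window is 300 bases, running from 250 bases before to 50 bases after a transcript start as RefSeq's GRCm38.p6 promoter table gives it, read 5′ to 3′ on the gene's strand. For Zfp42 and Yy2 that start is the end of the gene's span. For Yy1 it lies inside the span, so the whole Yy1 window lies downstream of the span's first base, 108792945, and the sequence before that base is not shown. Capitals mark the octamer ATTTGCAT, the letters that POU factors such as OCT4 are known to bind.
Zfp42, chr8:43306960-43307259, minus strand: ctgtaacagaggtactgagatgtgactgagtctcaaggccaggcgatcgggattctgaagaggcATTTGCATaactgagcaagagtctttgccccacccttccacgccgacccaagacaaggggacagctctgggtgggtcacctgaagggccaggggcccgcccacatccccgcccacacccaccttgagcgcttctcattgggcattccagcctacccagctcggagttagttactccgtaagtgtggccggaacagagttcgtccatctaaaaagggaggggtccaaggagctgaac
Yy1, chr12:108793047-108793346, plus strand: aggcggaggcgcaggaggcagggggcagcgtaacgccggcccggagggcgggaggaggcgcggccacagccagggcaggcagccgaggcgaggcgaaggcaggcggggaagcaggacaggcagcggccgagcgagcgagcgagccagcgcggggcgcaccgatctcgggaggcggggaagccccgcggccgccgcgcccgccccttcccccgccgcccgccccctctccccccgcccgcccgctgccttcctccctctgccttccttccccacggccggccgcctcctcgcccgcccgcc
Yy2, chrX:157568936-157569235, minus strand: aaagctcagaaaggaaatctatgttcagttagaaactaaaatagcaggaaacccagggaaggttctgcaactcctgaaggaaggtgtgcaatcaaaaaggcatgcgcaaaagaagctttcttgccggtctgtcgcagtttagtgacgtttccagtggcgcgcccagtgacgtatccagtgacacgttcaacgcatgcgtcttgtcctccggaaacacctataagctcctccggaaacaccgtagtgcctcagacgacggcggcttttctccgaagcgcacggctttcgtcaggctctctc
The octamer in the Zfp42 window spans the bases 186 to 179 upstream of that start and lies on the gene's own strand. Searched on both strands (reverse complement ATGCAAAT), the octamer occurred in 1.74% of 32851 such promoter windows. The YY1 core motif AANATGGC (reverse complement GCCATNTT) occurred in 6.05% of windows and in none of these 3. The Yy1 window was 81.0% G and C with 42 CpG dinucleotides, against medians of 52.7% and 7 over all windows. The Yy2 window held 20 CpG at 51.3% G and C, and the Zfp42 window 11 at 57.7%. A match is a description of letters, and the absence of a match says only that these letters are not in the window.

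The libraries held 13672061 to 20782348 counts on genes. Levels are CPM, a gene's counts scaled to a common total of gene counts per library, and the levels of different genes were not compared with each other because transcript lengths were not used here. The labelled cell types were checked against their markers: 19 pluripotency factors summed to between 5783 and 9065 CPM in undifferentiated libraries and to between 538.1 and 736.1 CPM on day 6. The 17 fibroblast markers summed to 2763 to 5080 CPM in ES, 388 to 1162 CPM in EPS and 19.1 to 90.0 CPM in the undifferentiated lines with a construct, where Twist2 was at 0 in all groups, and Lum also in EPS shCtrl. On day 6 they summed to 974 to 1259 CPM. In bulk samples fewer cells of a type and less RNA per cell cannot be told apart.

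Yy1 (chromosome 12, 108792945 to 108820148, GRCm38.p6) was the steady member. Across the 14 libraries that carried neither Yy1 hairpin nor Yy1 construct it ranged from 108 to 134 CPM, a 1.24-fold span that took in ES, EPS, both control lines and both day 6 controls. Single libraries stood at 116, 108 and 130 CPM in ES and at 109, 118 and 116 CPM in EPS. The groups overlapped, with means of 118 ± 11.0 CPM and 114 ± 4.95 CPM (SD, n = 3 each). The fitted log2 fold change of EPS against ES was 0.02 ± 0.09 (SE; 95% interval -0.16 to 0.20; edgeR's quasi-likelihood test, Benjamini-Hochberg adjusted p = 0.907), while 30.6% of all genes tested were called in this comparison. A call here and below is an adjusted p under 0.05 over all genes tested.

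The Yy1 hairpin lowered Yy1 in EPS cells to 52.6% of its control. Both shYy1 libraries stood at 70.5 CPM and both shCtrl libraries at 134 CPM, without overlap. The fall was 0.99 ± 0.11 on the log2 scale (adjusted p = 4.43e-06), and 28.5% of all genes were called, 4682 of 16440. That number was 2571 to 2703 without EPS shCtrl replicate 2 or without either shYy1 replicate. The hairpin control itself was at 1.17 times the level of untransduced EPS cells, a log2 difference of 0.10 (95% interval -0.11 to 0.30; adjusted p = 0.410; 56.4% of genes called).

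Overexpression raised Yy1 7.69-fold in ES cells. The libraries held 934 and 941 CPM in oeYy1 against 120 and 124 CPM in oeCtrl. The log2 fold change was 2.94 ± 0.11 (adjusted p = 4.91e-11; 32.0% of genes called), and Yy1 had the smallest p of all 16440 genes. The counts do not separate transcripts of the construct from those of the endogenous gene. ES oeCtrl did not differ detectably from untransduced ES in Yy1 (log2 difference -0.005 ± 0.10, 95% interval -0.21 to 0.20; adjusted p = 0.973), though 50.6% of genes were called. Nor did EPS shCtrl from ES oeCtrl (0.12, 95% interval -0.10 to 0.34; adjusted p = 0.396; 40.4% called).

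By day 6 both departures of Yy1 had shrunk. In EPS shYy1 cells Yy1 rose from 70.5 to 112 ± 2.98 CPM, a log2 change of 0.72 ± 0.07 (adjusted p = 7.92e-09; 75.4% of genes called). Its day 6 libraries held 114 and 110 CPM against 129 and 122 CPM in the day 6 control. These ranges did not overlap in CPM, at 88.9% of the control, yet the fitted difference was -0.03 ± 0.05 (95% interval -0.13 to 0.06; adjusted p = 0.567; 61.3% called). The fit scales libraries by TMM factors, which moved levels by factors of 0.910 to 1.13, and on that scale the interval of the difference includes 0. The difference between the stages in the effect of the hairpin was itself called, at 0.95 ± 0.10 (adjusted p = 1.67e-07; 41.5% called).

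Yy1 fell over the same days in the overexpressing cells, from 937 to 328 ± 4.96 CPM (log2 change -1.58 ± 0.07, adjusted p = 6.74e-15; 72.7% of genes called). It remained 2.67-fold above the day 6 control, with libraries at 332 and 325 CPM against 119 and 126 CPM (log2 fold change 1.38 ± 0.05, adjusted p = 9.22e-33; 41.9% called). The change of the effect between stages was -1.60 ± 0.10 (adjusted p = 1.56e-10; 37.6% called).

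In the control lines Yy1 changed little with differentiation. ES oeCtrl held 122 ± 2.24 CPM before and 123 ± 4.60 CPM on day 6 (log2 change 0.01, 95% interval -0.13 to 0.16; adjusted p = 0.876; 73.0% of genes called). EPS shCtrl went from 134 to 126 ± 4.30 CPM, a log2 fall called at -0.23 ± 0.07 (adjusted p = 0.00422; 74.1% called) that was -0.13 and no longer called (adjusted p = 0.102) without EPS shCtrl replicate 2. The 2 control lines differed in this change by -0.25 ± 0.10 (adjusted p = 0.0404; 48.7% called), and on day 6 by -0.11 ± 0.05 (adjusted p = 0.0319; 64.1% called). Both of these calls were lost in several alternatives, and in unscaled CPM the day 6 difference had the opposite sign, with 126 CPM in EPS shCtrl against 123 CPM in ES oeCtrl.

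**Figure D1:**
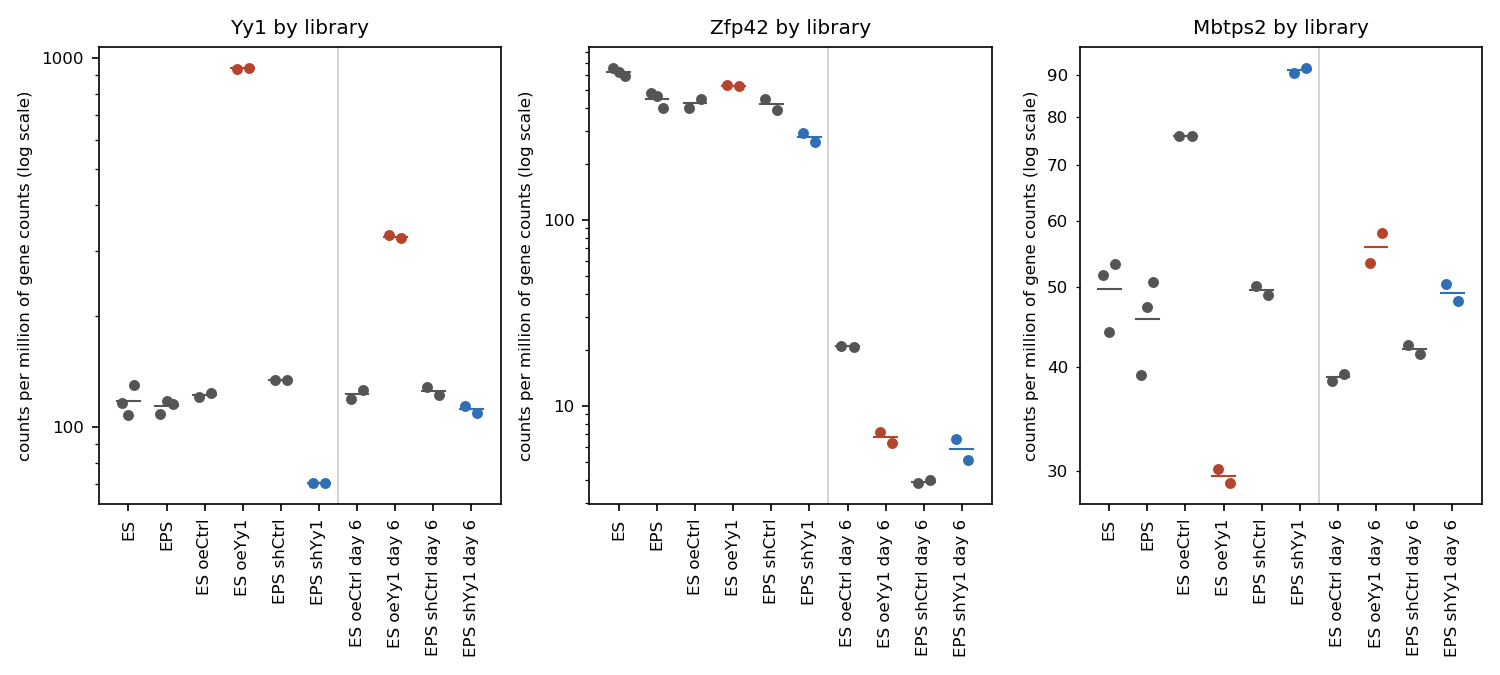
Level of Yy1, Zfp42 and Mbtps2 in each of the 22 libraries, in CPM on a logarithmic axis. Points are libraries, bars group means, red the Yy1 overexpression lines, blue the Yy1 hairpin lines, grey all others, and the vertical line separates undifferentiated cells from day 6. Yy1 lies between 108 and 134 CPM in all grey groups, while Zfp42 drops in every line on day 6.

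Yy2 (chromosome X, 157566119 to 157568985) was listed at 0 in all 22 libraries and so entered no test. Taking 3 counts as the limit that a count of 0 allows, its level could be up to 0.144 to 0.219 CPM depending on the library, which covers counting error only. Its whole span lies inside that of Mbtps2 (157547822 to 157598715), so a read on Yy2 can overlap both genes. Reads counted as ambiguous made up 3.70 to 5.32% of a library's lines. Of the 540 protein-coding genes that lie inside the span of another gene, 92 (17.0%) were at 0 in every library, against 2388 of 19691 others (12.1%) and 139 of 839 X-linked genes (16.6%). Whether the counting of nested genes or the absence of the transcript sets Yy2 to 0 was not tested.

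Mbtps2, the host of Yy2, encodes the site-2 protease that releases SREBP transcription factors and did have counts, 19030 over all libraries. It was higher in hairpin EPS cells, at 90.5 and 91.8 CPM against 50.1 and 48.9 CPM in their control (log2 fold change 0.82, adjusted p = 1.18e-04). Overexpression went with the reverse, 30.1 and 29.0 CPM against 76.0 CPM in both controls (-1.37, adjusted p = 7.06e-07). Groups did not overlap in either comparison. The overexpression control itself stood above untransduced ES cells, which held 49.65 CPM (log2 difference 0.56 ± 0.11, adjusted p = 4.36e-04). EPS shCtrl did not differ detectably from EPS in Mbtps2 (-0.02 ± 0.11, adjusted p = 0.910). On day 6 both manipulations had more Mbtps2 than their control: 49.2 against 42.0 CPM for the hairpin (0.36, adjusted p = 9.43e-06) and 55.8 against 38.9 CPM for overexpression (0.48, adjusted p = 1.34e-07). The overexpression effect on Mbtps2 thus changed sign between stages (difference 1.81, adjusted p = 3.46e-10).

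X-linked genes as a whole stood apart in the hairpin line. Of 607 tested, 351 rose and 15 fell in EPS shYy1 against EPS shCtrl, with a median of 0.83, against -0.03 over autosomal genes. The median was 0.02 for overexpression and 0.26 for the hairpin on day 6. Y-linked genes summed to 159 to 162 CPM in EPS shYy1 and to 6.43 to 7.94 CPM in EPS shCtrl, so the 2 lines differed in both sex chromosomes. Y-linked sums also differed in other pairs, at 114 to 133 CPM in ES oeCtrl against 28.1 to 28.8 CPM in ES oeYy1. On day 6 these lines held 104 to 106 and 67.15 to 73.1 CPM. In ES the sums were 65.1 to 77.8 CPM and in EPS 16.6 to 28.3 CPM. The part of these differences in the Mbtps2 and Zfp42 results was not tested. The labels of Yy1 depletion and overexpression cannot be told apart from these line differences.

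Zfp42 (chromosome 8, 43295067 to 43307009) was expressed in every undifferentiated library, where its rank by count lay between 181 and 695, and was the member that varied most. Its highest group mean, 623 CPM in ES, was 160-fold its lowest, 3.90 CPM in EPS shCtrl on day 6. In decreasing order the undifferentiated groups were ES, ES oeYy1, EPS, ES oeCtrl, EPS shCtrl and EPS shYy1. The ranges of EPS, ES oeCtrl and EPS shCtrl overlapped with their neighbours, and the other steps of that order did not.

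Zfp42 was lower in EPS than in ES. The ES libraries held 657, 622 and 591 CPM and the EPS libraries 479, 463 and 399 CPM. The groups did not overlap, and the log2 change was -0.41 ± 0.11 (adjusted p = 0.00913), in a comparison where 2 of the 19 pluripotency factors rose and 6 fell, beside 30.6% of all genes called. Beside it, chromosome 8 as a whole was lower in EPS, with 292 of its 820 tested genes down, 50 up and a median of -0.28, and the fibroblast markers were lower too. Y-linked genes also summed to less in EPS, as given above. The part of any of these in the Zfp42 result was not tested.

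The lines with a control construct did not show that gap. Zfp42 stood at 445 and 391 CPM in EPS shCtrl and at 398 and 447 CPM in ES oeCtrl (log2 difference -0.04, 95% interval -0.32 to 0.25; adjusted p = 0.857), although the median of chromosome 8 was -0.44 there. ES oeCtrl had less Zfp42 than untransduced ES (-0.61 ± 0.12, adjusted p = 5.92e-04), while EPS shCtrl against EPS gave -0.24 ± 0.12 (95% interval -0.50 to 0.02; adjusted p = 0.106). The latter was called with the replicate number as a block (-0.32, adjusted p = 0.00514) and without EPS replicate 3 (-0.36). The median of chromosome 8 was 0.37 for ES oeCtrl against ES and 0.09 for EPS shCtrl against EPS. All 17 fibroblast markers fell in the former (median -8.99) and 16 of 17 in the latter (median -6.20), and their part in the Zfp42 values was not tested.

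Depletion of Yy1 went with less Zfp42. EPS shYy1 held 294 and 261 CPM, 66.5% of the 445 and 391 CPM in EPS shCtrl. The fall was 0.65 ± 0.14 on the log2 scale (adjusted p = 0.00184) and the groups did not overlap. The 19 pluripotency factors moved both ways: 8 rose and 6 fell, with a median of -0.03, beside 28.5% of all genes called, and Nanog rose from 549 to 1179 CPM (1.04 ± 0.13, adjusted p = 1.33e-05). Fgf4, an autocrine growth factor, rose by 1.18 and Tcl1, an AKT cofactor, by 1.89, while Klf5 (-0.75) and the imprint keeper Zfp57 (-0.85) fell with Zfp42. Chromosome 8 had a median of -0.05 here. The X-linked and Y-linked differences between these lines, given above, touch this comparison too, and their part was not tested.

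Overexpression of Yy1 went with a higher Zfp42 level that was not called. The libraries stood at 529 and 523 CPM against 398 and 447 CPM, without overlap, and the log2 change was 0.31 ± 0.13 (95% interval 0.03 to 0.60; adjusted p = 0.0878). It was called under 4 alternatives: 0.35 with scaling from autosomal genes (adjusted p = 0.0487), 0.31 with the replicate number as a block (0.0145), 0.35 with DESeq2 (0.0435) and 0.32 in a fit of only these 4 libraries (6.94e-04). Only these 4 libraries fitted, 8149 genes were called in place of 5255, and 3065 to 3614 when a library was left out. Of the 19 factors 7 rose, among them Zfp57 (0.93), Klf2 (0.82) and Gbx2 (1.20), and 4 fell, among them Dppa5a (-1.32), beside 32.0% of all genes called. Untransduced ES cells held 623 CPM, above both lines, and ES oeCtrl was itself called below them (-0.61 ± 0.12, adjusted p = 5.92e-04). The part of this control shift in the Zfp42 change was not tested. The Y-linked difference between these lines, given above, touches this comparison too, and its part was not tested.

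After 6 days of F4H little Zfp42 was left in any line. The day 6 libraries held 20.9 and 20.8 CPM in ES oeCtrl, 7.25 and 6.26 CPM in ES oeYy1, 6.62 and 5.12 CPM in EPS shYy1, and 3.82 and 3.97 CPM in EPS shCtrl. These values rest on 416 and 352 counts, 104 and 90, 130 and 82, and 73 and 79. ES oeCtrl stood above the other 3 groups, of which ES oeYy1 and EPS shYy1 overlapped. Set against the undifferentiated cells of the same line, 4.93% of the Zfp42 level remained in ES oeCtrl, 2.12% in EPS shYy1, 1.28% in ES oeYy1 and 0.933% in EPS shCtrl.

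The corresponding log2 changes were -4.34 ± 0.10, -5.50 ± 0.11, -6.35 ± 0.12 and -6.88 ± 0.12, with adjusted p between 3.99e-21 and 1.84e-19. Stage cannot be told apart from anything else that differed between the undifferentiated and the day 6 libraries. Pluripotency factors fell alongside: 18 of 19 in each of ES oeCtrl, ES oeYy1 and EPS shYy1, and 19 of 19 in EPS shCtrl, with none called up. Of all genes 73.0, 72.7, 75.4 and 74.1% were called in these comparisons, in both directions. Zfp42 was within the range of these factors and not at its end, number 8 from the lowest of 20 genes in ES oeCtrl and number 5 in EPS shCtrl. Tcl1, Prdm14 and Esrrb fell further in ES oeCtrl, while Sall4 (-0.97) and Pou5f1 (-1.25), which encodes OCT4, fell less.

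**Figure D2:**
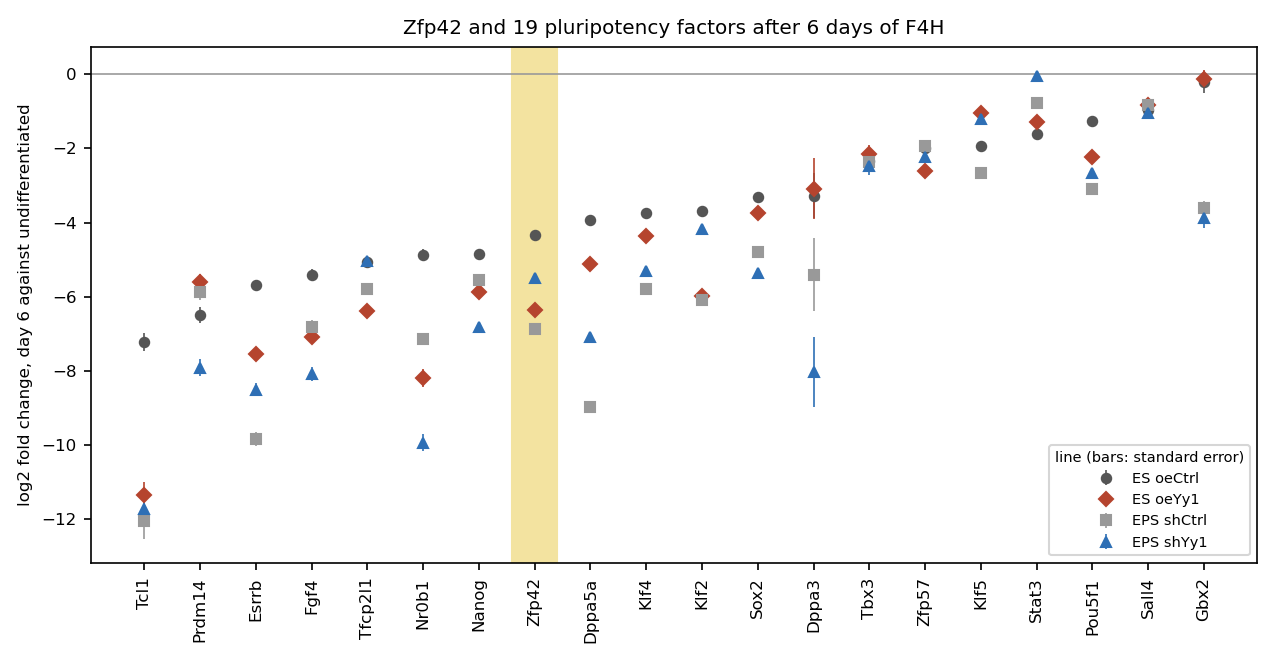
Log2 fold change of day 6 against undifferentiated cells for Zfp42 (shaded) and 19 pluripotency factors, in each of the 4 lines. Points are fitted values, bars standard errors, and genes are ordered by their change in ES oeCtrl. Zfp42 falls least in ES oeCtrl (-4.34) and most in EPS shCtrl (-6.88).

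The extent of the fall differed between the 2 control lines. Zfp42 fell further in EPS shCtrl than in ES oeCtrl, with a difference of -2.54 ± 0.15 on the log2 scale (adjusted p = 3.82e-11), and on day 6 the 2 controls differed by -2.56 ± 0.14 (adjusted p = 1.76e-23). Chromosome 8 as a whole was also lower in EPS shCtrl on day 6, with 476 of its 799 tested genes down, 103 up and a median of -0.41. Of all genes 64.1% were called between the day 6 controls, 5037 up and 5168 down. Of the 19 factors 13 shared the direction of this larger fall with a call of their own, Esrrb (-4.15) and Dppa5a (-5.04) among them, and Stat3 (0.84) was called the other way, beside 48.7% of all genes called. Epiblast markers summed to 974 to 994 CPM in EPS shCtrl on day 6 and 792 to 794 CPM in ES oeCtrl, and endoderm markers to 341 to 346 CPM and 711 to 739 CPM. Trophoblast markers summed to 361 to 368 CPM and 302 to 309 CPM. The part of such makeup, or of the chromosome 8 shift, in the Zfp42 difference was not tested, and the hairpin and overexpression backbones cannot be told apart from the origin.

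On day 6 the differences in Zfp42 had the opposite sign from those in undifferentiated cells, where that of overexpression was not called. Hairpin cells held 1.51 times the Zfp42 level of their control (log2 fold change 0.74 ± 0.18, adjusted p = 2.37e-04), without overlap. Overexpressing cells held 32.5% of theirs (-1.66 ± 0.14, adjusted p = 1.92e-15), again without overlap. The difference between stages was called for both, at 1.38 ± 0.18 for the hairpin (adjusted p = 2.46e-06) and -2.01 ± 0.15 for overexpression (adjusted p = 2.89e-09). The 2 stages have their own control libraries. On day 6 Yy1 itself did not differ detectably between the hairpin line and its control (-0.03 ± 0.05, adjusted p = 0.567). These 2 lines still differed in Y-linked sums, 173 to 179 against 18.9 to 21.2 CPM, and in X-linked sums. The part of these differences in the Zfp42 values was not tested.

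Several factors shared these shifts. For the hairpin the change between stages was called up for 8 of 19 factors, among them Klf2 (1.93), Dppa5a (1.88), Klf5 (1.47) and Esrrb (1.33), and down for 5, among them Nanog (-1.26) and Nr0b1 (-2.80). For overexpression it was called down for 12, among them Klf2 (-2.29), Esrrb (-1.84) and Tfcp2l1 (-1.32), and up for Klf5 (0.87) and Stat3 (0.34). Of all genes 41.5% were called for the hairpin and 37.6% for overexpression. On day 6 itself 7 factors rose and 5 fell with the hairpin, and 6 rose and 10 fell with overexpression, beside 61.3 and 41.9% of all genes called. Klf2, Esrrb, Tfcp2l1 and Dppa5a rose with the hairpin and fell with overexpression, as Zfp42 did. Sall4 (-0.82 and 0.48), Zfp57 (-1.15 and 0.34) and Gbx2 (-2.23 and 1.32) did the reverse, Klf5, Tbx3 and Stat3 rose with both, and Nr0b1 fell with both.

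**Figure D3:**
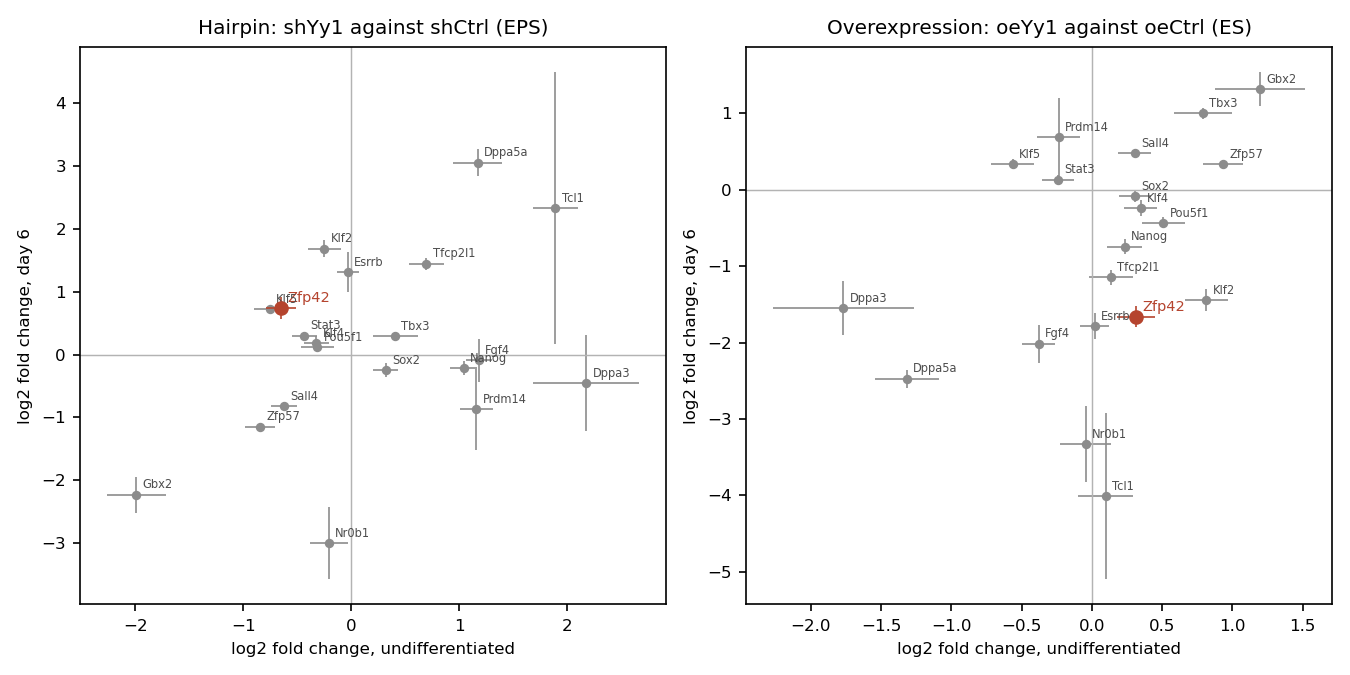
Effect of the Yy1 hairpin (left) and of Yy1 overexpression (right) on Zfp42 (red) and 19 pluripotency factors (grey), as log2 fold change against the control line, in undifferentiated cells (horizontal) and on day 6 (vertical). Bars are standard errors. Zfp42 lies at -0.65 and 0.74 for the hairpin, and at 0.31 and -1.66 for overexpression.

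The nearest tested neighbours of Zfp42, the tripartite motif-like genes Triml2 (101 kb away) and Triml1 (115 kb), were low on day 6 as well. The log2 change of Triml2 was -7.91 in EPS shCtrl and -4.85 in ES oeCtrl, and that of Triml1 -8.71 and -5.85. On day 6 Triml2 was at 4.15 CPM in EPS shYy1 against 0.489 CPM in EPS shCtrl (3.21 ± 0.32, adjusted p = 3.67e-13) and Triml1 at 1.02 against 0.204 CPM (2.39 ± 0.56, adjusted p = 2.05e-04). These EPS shCtrl values lie not far above 3 counts, which were 0.151 to 0.157 CPM in its day 6 libraries. The fold changes that use them, those to day 6 included, rest on few counts. With overexpression Triml2 fell (-1.65) and so did Triml1 (-2.21). In undifferentiated cells the pair did not track Zfp42 throughout: Triml1 fell by 0.39 with the hairpin, Triml2 gave -0.05 (adjusted p = 0.805), and Triml2 fell with overexpression (-0.56). Fat1, 1626 kb away on the other side, rose over the 6 days in ES oeCtrl (1.98), EPS shYy1 (1.80) and ES oeYy1 (1.14), and gave 0.31 in EPS shCtrl (adjusted p = 0.166).

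Among 10676 genes of at least 5 CPM on average, the pattern most like that of Zfp42 over the 10 group means of log2 CPM belonged to Taf7 (r = 0.994), Triml1 (0.994), Morc1 (0.993), Nr5a2 (0.993) and Esrrb (0.993). These r values are descriptions over groups that share libraries and are carried by the step to day 6. Over the 6 undifferentiated groups alone the r of Zfp42 with Esrrb was 0.65 and with Nanog -0.04, against 0.98 for Nanog over all 10, while with Stat3 it was 0.82. For Yy1, over the 8 groups without its construct, the most alike were Jmjd6 (0.934), Tchp (0.924), Rnf20 (0.921), Gmeb1 (0.911) and Trappc4 (0.895). The lowest of these 8 groups in Yy1 was EPS shYy1.

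**Figure D4:**
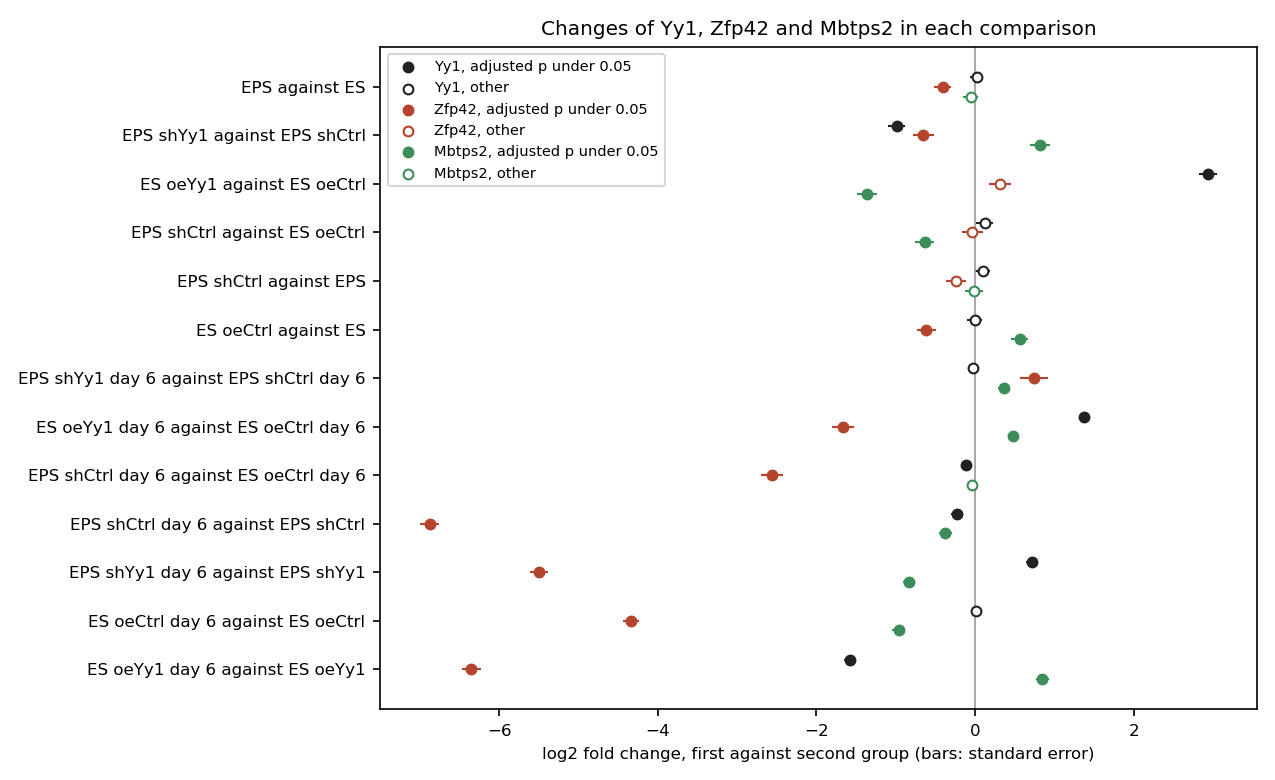
Log2 fold change of Yy1 (black), Zfp42 (red) and Mbtps2 (green) in each comparison of 2 groups. Filled points have an adjusted p under 0.05, open points do not, and bars are standard errors. The largest changes of Yy1, 2.94 and -1.58, are those of its overexpression line, and Zfp42 reaches -6.88 between the stages.

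The known partners of YY1 changed by small amounts when Yy1 did. With the hairpin 0 of 14 INO80 complex genes rose and 4 fell (median -0.25), with the ATPase subunits Ruvbl2 (-0.55 ± 0.12, adjusted p = 0.00229) and Ruvbl1 (-0.54 ± 0.12, adjusted p = 0.00248) and the subunit Ino80e (-0.42) leading. Of 12 Polycomb partners 2 rose and 4 fell: Eed (-0.79) and Mbtd1 (-0.66) were lower and Bmi1 (0.70) higher. Of 20 other cofactors and looping factors 2 rose, the X-linked Ogt (0.76) and Smc1a (0.69), and 4 fell, including Asxl1 (-0.52). The median over the 607 X-linked genes tested was 0.83 in this comparison, and its part in these 2 rises was not tested. The shares called here stand beside 28.5% of all genes. The hairpin control itself differed from untransduced EPS cells, with 6 INO80 genes up and 2 down, beside 56.4% of all genes called. Polycomb partners gave 0 up and 4 down there, and cofactors 7 up and 3 down. INO80 genes summed to 1145 to 1195 CPM in EPS, 1396 to 1466 CPM in EPS shCtrl and 1182 to 1222 CPM in EPS shYy1. The part of this control shift in the hairpin values was not tested.

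With overexpression 1 INO80 gene rose, the ATPase Ino80 itself (0.64 ± 0.12, adjusted p = 5.16e-04), and 2 fell. Of all genes 32.0% were called. Of the Polycomb partners 2 rose, Sfmbt1 (0.55) and L3mbtl2 (0.39), and Ezh2, the H3K27 methyltransferase, fell by 0.58. Of the cofactors 3 rose, Asxl1 (0.55) and Ogt (0.53) among them, and Foxk2 (-0.57) fell. Asxl1 thus went down with depletion and up with overexpression, and Ogt rose in both. EPS against ES gave 4 INO80 genes up and 2 down, 3 Polycomb partners up and 2 down, and 4 cofactors up and 0 down, beside 30.6% of all genes called, led by Uchl5 (0.59), Bmi1 (-1.13) and Stag2 (0.51).

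On day 6 the hairpin came with 3 INO80 genes up and 5 down, 4 Polycomb partners up and 4 down, and 9 cofactors up and 3 down, with Ruvbl2 again lower (-0.56 ± 0.05, adjusted p = 2.59e-15). Overexpression came with 0 and 3, 2 and 2, and 9 and 1. The Polycomb partner Sfmbt2 rose with the hairpin (0.83) and fell with overexpression (-0.58). These counts stand beside 61.3% (hairpin) and 41.9% (overexpression) of all genes called.

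Loci known from other work as bound by YY1 or REX1 were followed as well. Xist, the RNA that silences an X chromosome, was at 464 and 477 CPM in EPS shYy1 on day 6 and between 0.252 and 0.652 CPM in the other 3 day 6 groups (10.36 ± 0.11 against EPS shCtrl, adjusted p = 1.25e-60, the smallest of all genes). In undifferentiated cells the hairpin gave -0.50 (adjusted p = 0.741), with 10.5 and 11.6 CPM against 4.59 and 25.9 CPM. The antisense gene Tsix overlaps Xist and the strand setting of the counts is not given in the sources used here, so reads of the pair cannot be told apart. Rlim, the X-linked ubiquitin ligase that targets REX1 protein, was higher in EPS than in ES, at 543 against 242 CPM (1.23 ± 0.16, adjusted p = 2.13e-05). The control lines did not show that gap, at 166 CPM in EPS shCtrl and 154 CPM in ES oeCtrl (0.09 ± 0.19, adjusted p = 0.728). Each was below its untransduced cells (-1.83 for EPS shCtrl, -0.70 for ES oeCtrl, both called). Rlim did not differ detectably with the hairpin in undifferentiated cells (-0.04 ± 0.19) and was higher with it on day 6 (0.67 ± 0.05, adjusted p = 9.50e-19). On day 6 the hairpin line and its control still differed in both sex chromosomes: X-linked genes summed to 43720 to 44110 against 33960 to 34010 CPM (median of 571 tested genes 0.26), and Y-linked genes to 173 to 179 against 18.9 to 21.2 CPM. The part of this in the Xist and Rlim values was not tested.

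The imprinted gene Peg3 was higher with the hairpin, at 150 against 39.7 CPM (1.84 ± 0.26, adjusted p = 1.39e-04), and lower with overexpression (-0.84 ± 0.25). Untransduced EPS cells held 129 CPM, and EPS shCtrl stood below them (-1.82 ± 0.24, adjusted p = 2.36e-05). ES oeCtrl did not differ detectably from ES in Peg3 (0.47, adjusted p = 0.0959). On day 6 Peg3 was higher with both manipulations, by 0.89 and 0.38. Gnas, also imprinted, gave -0.72 ± 0.27 with the hairpin, which was not called (adjusted p = 0.0530). With overexpression Gnas was higher (1.23 ± 0.28, adjusted p = 0.00271). Both controls were above untransduced cells in Gnas. EPS shCtrl held 26.6 against 6.8 CPM in EPS (1.84, adjusted p = 8.65e-06), with EPS shYy1 between them. ES oeCtrl held 8.27 against 2.34 CPM in ES (1.77, adjusted p = 7.42e-05). Usp29 lies at the locus of Peg3 and Nespas at that of Gnas. Whether reads of these transcripts enter the Peg3 and Gnas values was not tested, and the strand setting is not given.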

How the data were processed

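The authors deposited whole-number counts of reads per gene symbol, 1 table per library, with no normalization. The submitters' processing notes list the tools Bowtie2 2.3.2 and CASAVA and the builds GRCm38.p6 and mm10, with no role given, and the counting tool and strand setting are not given in the sources used here. Lines that name no gene were left out of library sizes: 5.61 to 8.62% of reads lay outside genes, 3.70 to 5.32% were ambiguous and 5.45 to 6.66% aligned more than once. Positions came from RefSeq GRCm38.p6, which held 34744 of the 47517 symbols.

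Groups follow the sample titles. The models of edgeR 4.0.16 (R 4.3.3; TMM factors, filterByExpr, robust quasi-likelihood F-test) were 3: the 14 undifferentiated libraries, the 8 day 6 libraries, and the 16 libraries of the construct lines, which gave changes between stages. A call is a Benjamini-Hochberg adjusted p under 0.05 over all genes tested (16440, 15927 and 17207). Scripts were tested on simulated data. Alternatives were RLE in place of TMM factors, no count filter, scaling from autosomal genes, the replicate number as a block, DESeq2 1.42.0, only the libraries compared, and leaving out each library. Floors of 3 counts cover counting error only.

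The members and the 9 gene lists were chosen with earlier results of these data known. Named genes are the members, Mbtps2, the 2 nearest tested genes on each side of a member, up to 3 called genes of smallest p per list, Rlim, Xist, Tsix, Peg3 and Gnas, and the 5 genes most alike in pattern (log2 CPM, prior count 2). Other factors named beside Zfp42, and the promoter motifs, were chosen after values were seen, and neighbours are described only where they add to the member. Same-numbered ES and EPS replicates deviated together (r = 0.233, 0.318 and 0.533 over 13691 genes), which comes from the data, not from the labels. The main fits used no pairing. The replicate block, run as an alternative, changed no call of the members in EPS against ES.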

Additional observations from a re-analysis of the deposited data

Results flagged for a closer look

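These 6 differences of an effect between 2 settings passed the test of the difference itself. The effect of the Yy1 hairpin differed between day 6 and undifferentiated cells by 0.95 for Yy1 and by 1.38 for Zfp42 (log2, day 6 minus undifferentiated). The effect of overexpression differed by -1.60 for Yy1 and by -2.01 for Zfp42. The change over the 6 days differed between EPS shCtrl and ES oeCtrl by -0.25 for Yy1, which lost its call in several alternatives, and by -2.54 for Zfp42. Yy1 and Zfp42 were the only members tested here, because Yy2 was listed at 0, and 41.5, 37.6 and 48.7% of all genes passed the same tests in these 3 comparisons.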

How the results depend on the processing

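Of 354 recomputed values of Yy1 and Zfp42, 324 kept their direction and their side of the threshold, 14 lost a call, 6 gained a call and 10 changed sign. All 10 sign changes were of differences near 0. Of 177 recomputed counts of called genes, 170 stayed within 1.5 times. With TMM scaling 10 of 30 group levels moved by more than 1 SD, all of them of Yy1 or Zfp42. The 30 include the levels of Yy2 in 10 groups, which are 0 and cannot move.

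The Yy1 difference between the day 6 controls was -0.10 with no count filter and -0.12 with DESeq2, not called in either, and -0.16 to -0.083 with a library left out. The difference between the control lines in the change of Yy1 to day 6 was -0.22 and lost its call in several alternatives. These were no count filter, scaling from autosomal genes and only the libraries compared. With a library left out the difference was -0.28 to -0.16. Zfp42 under overexpression gained a call with autosomal scaling (0.35), DESeq2 (0.35) and only the libraries compared (0.32), where 8149 genes were called. Zfp42 in EPS shCtrl against ES oeCtrl became 0.0020 with autosomal scaling. The cause was not tested.

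With a library left out, Yy1 ranged from -0.034 to 0.069 in EPS against ES, from -0.057 to 0.045 in ES oeCtrl against ES, from -0.023 to 0.054 in ES oeCtrl over the 6 days and from -0.25 to -0.13 in EPS shCtrl over the 6 days. Zfp42 ranged from -0.36 to -0.17 in EPS shCtrl against EPS, called (-0.36) without EPS replicate 3, and from -0.14 to 0.067 in EPS shCtrl against ES oeCtrl. Genes called ranged from 2571 to 4853 for the hairpin and from 3065 to 3614 for overexpression. Without replicate 3 of both ES and EPS, chosen after seeing the data, Zfp42 gave -0.35 and Yy1 0.10.

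With the replicate number as a block, Zfp42 was called under overexpression (0.31) and in EPS shCtrl against EPS (-0.32), Yy1 in ES oeCtrl against ES became 0.0041, Zfp42 in EPS against ES was -0.42 (adjusted p = 2.64e-04), and no other call of the members changed. Apart from ES and EPS these samples share only a number (2 pairs a comparison, r of deviations -0.058 to 0.125).

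Groups hold 2 or 3 libraries, a group left with 1 is assumed to vary like the others, and Zfp42 on day 6 rests on 73 to 416 counts a library.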

Other observations

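Of the 4 tested neighbours of Yy1 on chromosome 12, none was called with the hairpin or with overexpression in undifferentiated cells, and 2 calls were made on day 6. Of all genes 28.5% (hairpin) and 32.0% (overexpression) were called in undifferentiated cells, and 61.3 and 41.9% on day 6. Slc25a29, 5.73 kb beyond its end, was at 1.96 CPM in EPS shYy1 and gave 0.85 ± 0.43 against shCtrl (adjusted p = 0.147), and 0.42 ± 0.42 with overexpression (adjusted p = 0.485). On day 6 it rose with the hairpin (0.86 ± 0.35, adjusted p = 0.0315). Slc25a47, 29.7 kb beyond, gave -1.15 ± 0.49 with overexpression in undifferentiated cells (adjusted p = 0.0864). Evl, 104 kb on the other side, gave 0.19 ± 0.13 (adjusted p = 0.293) and 0.28 ± 0.14 (adjusted p = 0.135), and rose by 0.42 with overexpression on day 6 (adjusted p = 4.09e-07). The nearest tested gene beyond Mbtps2 at the Yy2 locus, Sms, which makes spermine, rose by 0.84 ± 0.15 with overexpression (adjusted p = 4.17e-04), the reverse of Mbtps2, and by 0.79 ± 0.12 in EPS against ES (adjusted p = 1.09e-04).

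The genes whose pattern was most opposite to that of Zfp42 over the 10 groups were Tns4 (r = -0.992), Lhx1 (-0.987), Cyp26a1 (-0.987), Fgf8 (-0.984) and Lypd6 (-0.984). Lhx1 and Fgf8 are known from gastrulation and Cyp26a1 degrades retinoic acid. For Yy1, over 8 groups, the 5 most opposite were Klhl13 (-0.937), Ammecr1 (-0.933), Trmt2b (-0.932), Efhc2 (-0.931) and Elk1 (-0.913), all X-linked. EPS shYy1 is the group of lowest Yy1 and highest X-linked sum, 47530 to 48330 CPM against 25120 to 44110 CPM elsewhere.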
